A study of Drosophila melanogaster with 3 samples.

Results

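The 8 genes described here encode the large heat shock chaperones of Drosophila melanogaster and the factor that switches on the heat-induced ones. They are Hsp83, Hsp68, Hsc70-3, Hsc70-4, DnaJ-1, Hsf, Hsp70Aa and Hsp70Ba, a list given by name, and they are 8 of 13968 protein-coding genes on the chromosome arms. Each was examined for FoxP binding regions whose summit, the position of the highest signal, lay inside the gene or up to 2 kb upstream. Binding was measured by chromatin immunoprecipitation with sequencing (ChIP-seq) in whole prepupae, males and females pooled, of strain fd85E-GFP. This is 1 transgenic line that carries FoxP, a forkhead transcription factor also named fd85E, with eGFP at its C-terminal end, and an anti-GFP antibody was used for the precipitation. All 3 biological replicates belong to that 1 group, the age of the animals is given as unknown, and no heat treatment is named in the labels. The tagged protein comes from an inserted transgene, and a region is an average over the tissues of a whole animal, so the data cannot tell which cells held it.

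Chaperones bind unfolded stretches of other proteins and keep them from clumping. HSP70 proteins take up substrates with the help of J-domain partners of the HSP40 type, while HSP90 acts later, on kinases, receptors and other proteins that are close to their final shape. On heat stress, the heat shock factor Hsf forms trimers and binds heat shock elements, arrays of the units GAA and TTC in alternation, and RNA polymerase paused just behind the start is released. The HSP70 genes of the fly fall into a constitutive class, named Hsc70, and a class induced by heat, in which Hsp70Aa and Hsp70Ba belong to clusters of near-identical copies and Hsp68 is a more distant relative.

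The deposited regions come in 5 lists in dm6 coordinates. The lists of replicates 1, 2 and 3 hold 30000, 24326 and 22698 regions, a list from the pooled reads holds 30000, and a thresholded list holds the 2415 best-ranked of these. The lowest signal value inside the thresholded list was 134.19, and the next region below it in the pooled list had 134.18. Signal is the authors' score and has no stated scale, so regions were compared by rank within a list, and by a relative signal, the value divided by that of the region at rank 2415 of the same list. In these terms 1.00 marks the strength of the last thresholded region in the pooled list and of the region at the same rank in each replicate. The number of reads in each library is unknown, and the replicate lists differ in length, so a missing low-ranked region in 1 list cannot be told apart from a shorter list.

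Of the 8 genes, 1 had a thresholded summit in its window. This was Hsp83, the single HSP90 gene of the fly cytosol. Among all protein-coding genes 14.6% had one, so 1 of 8 is close to the background share and is not a result about the group. With a window that does not grow with gene length, 500 bp to either side of an annotated start, the count was again 1 of 8, against 8.96% of all protein-coding genes. Hsp83 held 2 thresholded summits, which 3.64% of protein-coding genes reached. In the whole pooled list, which by design includes background regions, 4 of the 8 genes had a summit (Hsp83, Hsc70-3, Hsc70-4 and DnaJ-1), against 56.5% of all genes. The same 4 had a pooled summit within 500 bp of a start, against 37.8%. Hsp68, Hsf, Hsp70Aa and Hsp70Ba had none. The replicate lists had a summit at 5, 6 and 5 of the 8 genes, against 57.2%, 56.2% and 56.5% of all genes for replicates 1, 2 and 3.

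**Figure D1:**
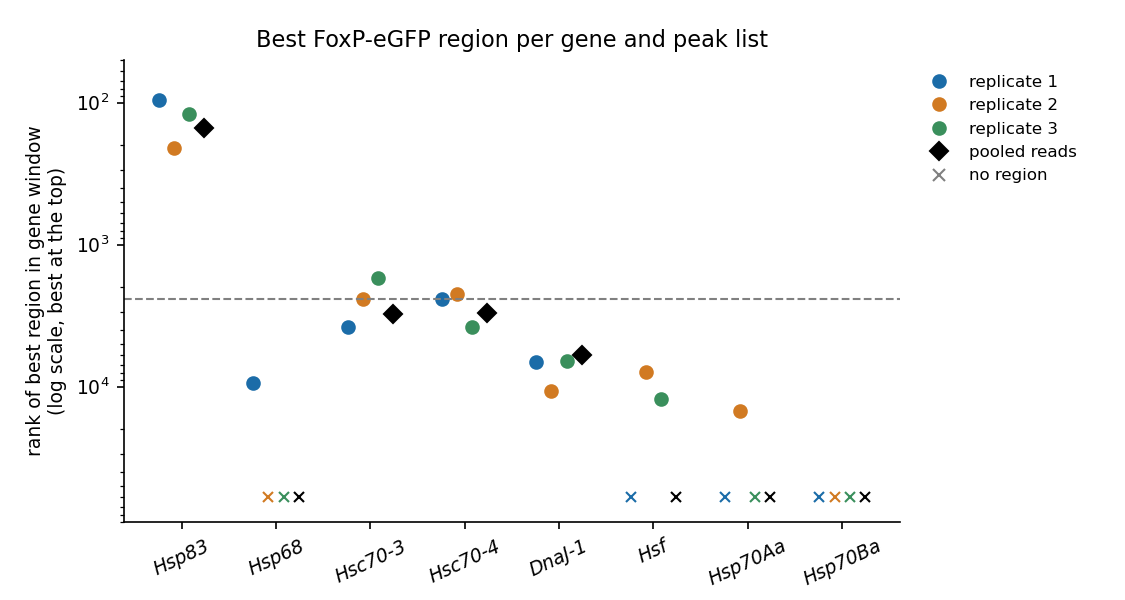
Rank of the best region in each gene's window (log axis, best at the top) in the lists of replicates 1, 2 and 3 (circles) and of the pooled reads (diamonds); a cross means that the list held no region there, and the dashed line is rank 2415. Hsp83 stood at ranks 96 to 207 in the replicates, Hsc70-3, Hsc70-4 and DnaJ-1 lay near or below the line, and Hsp70Ba had no region in any list.

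Hsp83 (FBgn0001233, 3L, 3192969 to 3197059, plus strand) has 2 exons, with the coding sequence wholly in the second, and 2 annotated starts, at 3192969 and 3193216. The better-ranked region (3L, 3192908 to 3193323) was at rank 150 of the pooled list, with a signal of 466.8 and a relative signal of 3.48. Its summit, at 3193116, lay 147 bp inside the longer transcript, in its 5′ UTR exon, and 100 bp upstream of the second start. The second region (3L, 3194194 to 3194329) was at rank 168, with a signal of 445.686 and a relative signal of 3.32, and its summit at 3194277 lay in the intron, 1061 bp past the second start. Both regions were thus of similar strength, 1 at the promoter and 1 inside the gene. The nearest start of another gene, that of CG14965, was 625 bp from the first summit, so no other gene shared these regions by the 500 bp rule.

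The 3 replicates each placed both summits among their best-ranked regions. The promoter region had signals of 213.67, 120.934 and 148.235 in replicates 1, 2 and 3, at ranks 96, 327 and 121. The intron region had 189.329, 142.599 and 107.729, at ranks 115, 207 and 284. Replicate 2 was the lowest of the 3 at the promoter and replicate 3 at the intron, and all 6 values were well inside rank 2415. Relative signals were 3.34 ± 0.737 (SD, n = 3) for the promoter and 3.03 ± 0.523 (SD, n = 3) for the intron, a difference smaller than either spread. The promoter region ranked above the intron region in replicates 1 and 3 and below it in replicate 2, so their order is not fixed by these data. The summit positions barely moved, with offsets from the pooled summit of 0, 17 and 6 bp at the promoter and -39, 0 and 0 bp in the intron. Of all thresholded regions on the arms, 56.5% had their summit inside a best-ranked region of each replicate, and both regions of Hsp83 were among them.

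**Figure D2:**
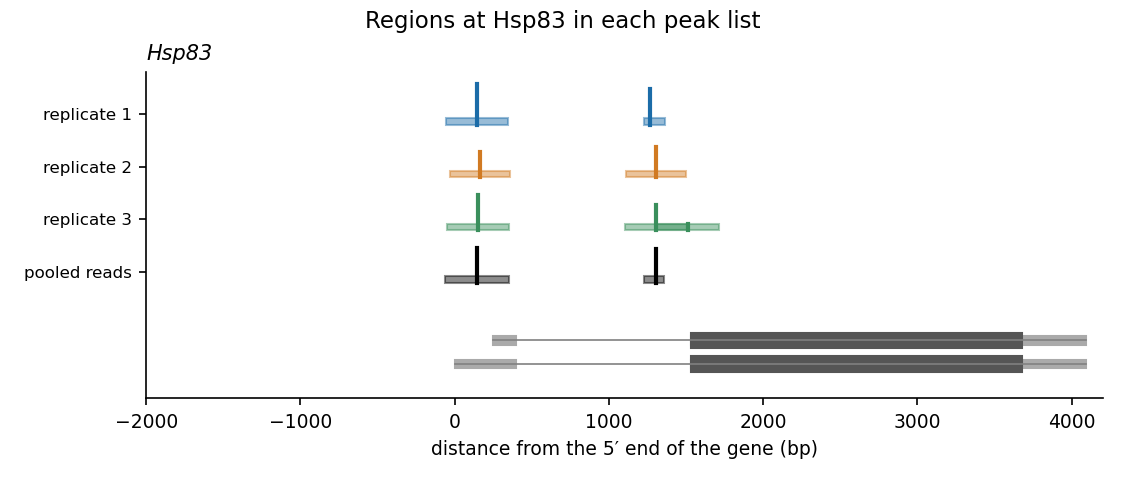
Regions at Hsp83 in the lists of replicates 1 to 3 and of the pooled reads, against distance from the 5′ end of the gene in bp; bars span each region, the vertical line is at the summit and its height is proportional to the relative signal, and the gene models below show coding exons as tall dark boxes, UTR exons as low grey boxes and introns as lines. All 4 lists place 1 summit between 147 and 164 bp and 1 between 1269 and 1308 bp, and replicate 3 adds a weak summit at 1511 bp.

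The promoter region and the intron region of Hsp83 differ in sequence. The first 2 sequences are 30-base stretches from the promoter region, chosen because they hold the motifs found near its summit, and the last is the whole intron region, shown because none of the motifs searched was found in it. All are on the plus strand, 5′ to 3′, from the RefSeq release 6 genome in dm6 coordinates. Capitals mark a pair of heat shock units (GAANNTTC or TTCNNGAA) in the first and a TATA box (TATAAA) in the second.
Hsp83 heat shock units, chr3L:3193137-3193166: agaagcctctaGAAGTTTCtagagacttcc
Hsp83 TATA box, chr3L:3193174-3193203: gtcgggtttttcTATAAAagcagacgcgcg
Hsp83 intron region, chr3L:3194194-3194329: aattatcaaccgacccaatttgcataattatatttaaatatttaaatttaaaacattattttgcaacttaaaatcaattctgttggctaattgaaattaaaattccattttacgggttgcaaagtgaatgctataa

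The pair of heat shock units was centred at -64.5 bp from the second Hsp83 start and the TATA box at -27.5 bp, so the promoter summit lay upstream of both. The lack of such a pair in the intron region depends on the window. Within 100 bp of the summit the intron region had 0 pairs, but within 150 bp both Hsp83 summits had one. Neither Hsp83 window held a forkhead motif (GTAAACA or GTAAATA on either strand) within 100 bp of the summit. These letters were found in 12.5% of thresholded arm regions. The intron region was 136 bp wide in the pooled list. Only 46 of 2395 thresholded arm regions (1.92%) were as narrow or narrower. This narrowness was not seen in every replicate. Replicate 1 called the site from 3194193 to 3194334, but replicates 2 and 3 called wider regions, from 3194082 to 3194471 and from 3194075 to 3194478. Over the pooled width the GC content of the intron region was 23.5%, against a median of 40.0% for thresholded arm regions. The difference depends on the window: over 100 bp to either side of the summit the GC content was 29.9%, against a median of 36.8%, and 13.9% of thresholded arm regions were as low or lower. The promoter region had 46.8% over the same window.

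Among all protein-coding genes, 177 (1.27%) had a better best rank in the pooled list than Hsp83. The next of the 8 genes came far below it. For Hsc70-4, Hsc70-3 and DnaJ-1 the number of genes with a better best rank was 2358 (16.9%), 2390 (17.1%) and 3668 (26.3%). Since 14.6% of genes have a thresholded summit, Hsc70-4 and Hsc70-3 fell just short of that part of the list.

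**Figure D3:**
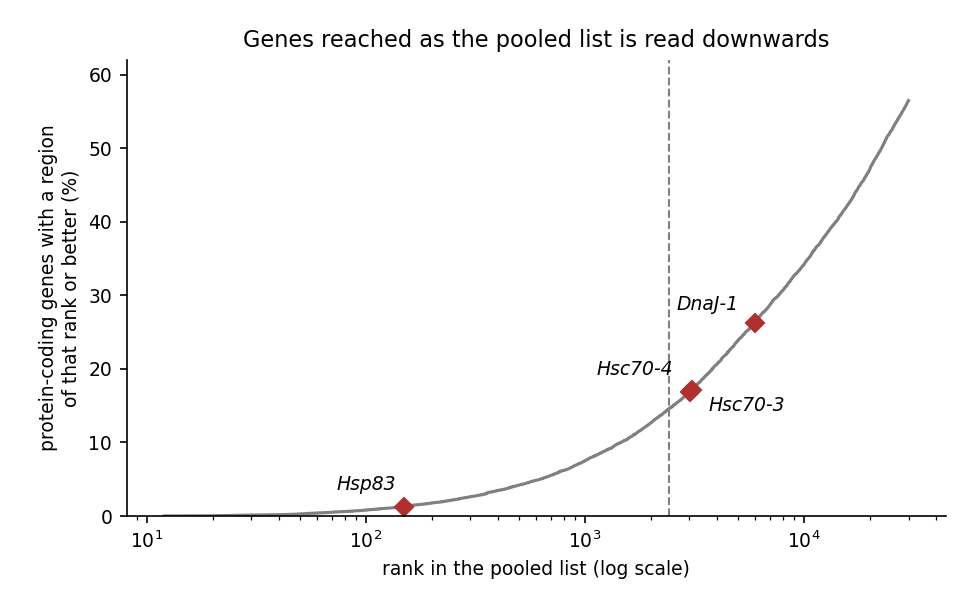
Percentage of the 13968 protein-coding genes that have a region at a given pooled rank or better (grey curve, log axis for rank), with the 4 genes that have a pooled region as red diamonds and rank 2415 as a dashed line. Hsp83, at rank 150, is reached when 1.27% of genes are ahead of it, Hsc70-4 and Hsc70-3 lie side by side just past the line, and DnaJ-1 is at 26.3%.

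Hsc70-4 (FBgn0266599, 3R, 15242687 to 15246614, plus strand) encodes the constitutive HSP70 of the cytosol, which also strips clathrin from vesicles, and has 6 annotated starts. It held 4 pooled summits. The best (3R, 15242543 to 15242958) had a signal of 120.032 at rank 3011 and a relative signal of 0.894. Its summit lay 64 bp past the first start. In replicates 1, 2 and 3 the region had signals of 53.2707, 24.5729 and 34.1139, at ranks 2407, 8519 and 3788. The relative signals were 1.00, 0.519 and 0.796, so replicate 1 alone placed it within its 2415 best-ranked regions and replicate 2 had it lowest. A second region (3R, 15242319 to 15242734), with its summit 160 bp upstream of the first start, was nearly as strong in the pooled list (118.494, rank 3076). It was found in replicate 2 only, with a signal of 49.5689 at rank 2212. That summit was 291 bp from the start of tefu, the fly ATM kinase gene, which is on the other side. So the replicates disagreed on which side of the Hsc70-4 start the stronger summit lay.

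Region 3 of Hsc70-4 in order of rank (3R, 15243497 to 15243912) had its summit in the intron, 1018 bp from the first start, at rank 5139, and was found in replicates 1 and 3 at ranks 4275 and 4812. Region 4, 347 bp from the first start, was at rank 28431 and no replicate list held it. Regions 3 and 4 each carried a heat shock element of 3 alternating units, with 2 free bases between units, centred at 74 bp and -77 bp from the summit. That form was found within 100 bp of only 7 of 2395 thresholded arm summits (0.292%) and of 74 of 29980 pooled arm summits (0.247%). Both elements are printed here with the promoter, from 150 bases before to 30 bases after the first start, and with the forkhead match nearest the best summit. The strand is plus, and capitals mark any motif searched, which besides heat shock units, TATA box and forkhead letters were GAGAG on either strand, the site of GAGA factor, and the site of the promoter factor DREF, TATCGATA.
Hsc70-4 region 3, chr3R:15243765-15243794: ttttagcaTTCCAGAATTTTCgcctttgtc
Hsc70-4 region 4, chr3R:15242943-15242972: ggcaaggtTTCTCGAACTTTCgaccccagt
Hsc70-4 forkhead match, chr3R:15242798-15242827: aggtaagcgttTATTTACattttagtattt
Hsc70-4 promoter, chr3R:15242537-15242716: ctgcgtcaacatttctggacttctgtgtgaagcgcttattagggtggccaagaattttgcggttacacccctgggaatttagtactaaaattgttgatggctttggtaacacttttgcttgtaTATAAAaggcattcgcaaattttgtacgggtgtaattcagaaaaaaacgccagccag

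Hsc70-3 (FBgn0001218, X, 11801696 to 11807117, minus strand) encodes the HSP70 of the endoplasmic reticulum, known as BiP, a sensor and target of the unfolded protein response. It has 4 annotated starts and held 5 pooled summits, the most of the 8 genes. The best (X, 11807455 to 11807870) had a signal of 118.634 at rank 3073 and a relative signal of 0.884, with its summit 546 bp upstream of the outermost start. In replicates 1, 2 and 3 its signals were 41.8719, 28.4137 and 50.1385, at ranks 3779, 6292 and 1717. All replicates thus held it, and replicate 3 alone placed it within its 2415 best-ranked regions. The second region (X, 11806176 to 11806591) had its summit in an intron of the longest transcript, 31 bp upstream of an internal start, at rank 4320. Its matches had ranks 7219, 2423 and 20873, and the summit of replicate 2 lay 82 bp from the pooled one. The remaining regions were at ranks 8306, 10266 and 20826, all in introns. The match of replicate 2 for the region at rank 8306 was the same region that matched the second. Replicates 1 and 2 also held a summit in the 3′ UTR, 4912 and 4921 bp from the 5′ end, at ranks 9133 and 15058, which the pooled list did not have.

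DnaJ-1 (FBgn0263106, 3L, 5750029 to 5752189, minus strand) encodes the main HSP40 partner of HSP70 in the cytosol. Of its 4 pooled summits the best (3L, 5751950 to 5752365) had a signal of 80.8716 at rank 5969 and a relative signal of 0.603. Its summit lay 31 bp past the single start. In replicates 1, 2 and 3 the signals were 30.5264, 22.0316 and 21.3307, at ranks 6712, 10716 and 9735, which is a relative signal of 0.512 ± 0.0556 (SD, n = 3). All replicates held it and none placed it within the best-ranked 2415. The other summits were at ranks 13409, 14828 and 28946. Those at 13409 and 28946 lay 332 and 90 bp from the start of Usp47, a ubiquitin protease gene, and nearer to it than to the start of DnaJ-1. In replicate 3 the best region of the window, at rank 6581, was also on that side, at -1219 bp from the DnaJ-1 start. The promoter, from 150 bases before to 30 bases after the start on the minus strand, is shown for its motifs, in capitals. It holds a pair of heat shock units (centre at -3.5) and a DREF site (centre at -68.5). The letters TATAAA occur 2 times, centred at -134.5 and 23.5 from the start.
DnaJ-1 promoter, chr3L:5752160-5752339: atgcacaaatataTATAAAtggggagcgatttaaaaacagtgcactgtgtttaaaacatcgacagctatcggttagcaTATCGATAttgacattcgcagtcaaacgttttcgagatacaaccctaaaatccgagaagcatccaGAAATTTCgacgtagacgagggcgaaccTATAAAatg

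**Figure D4:**
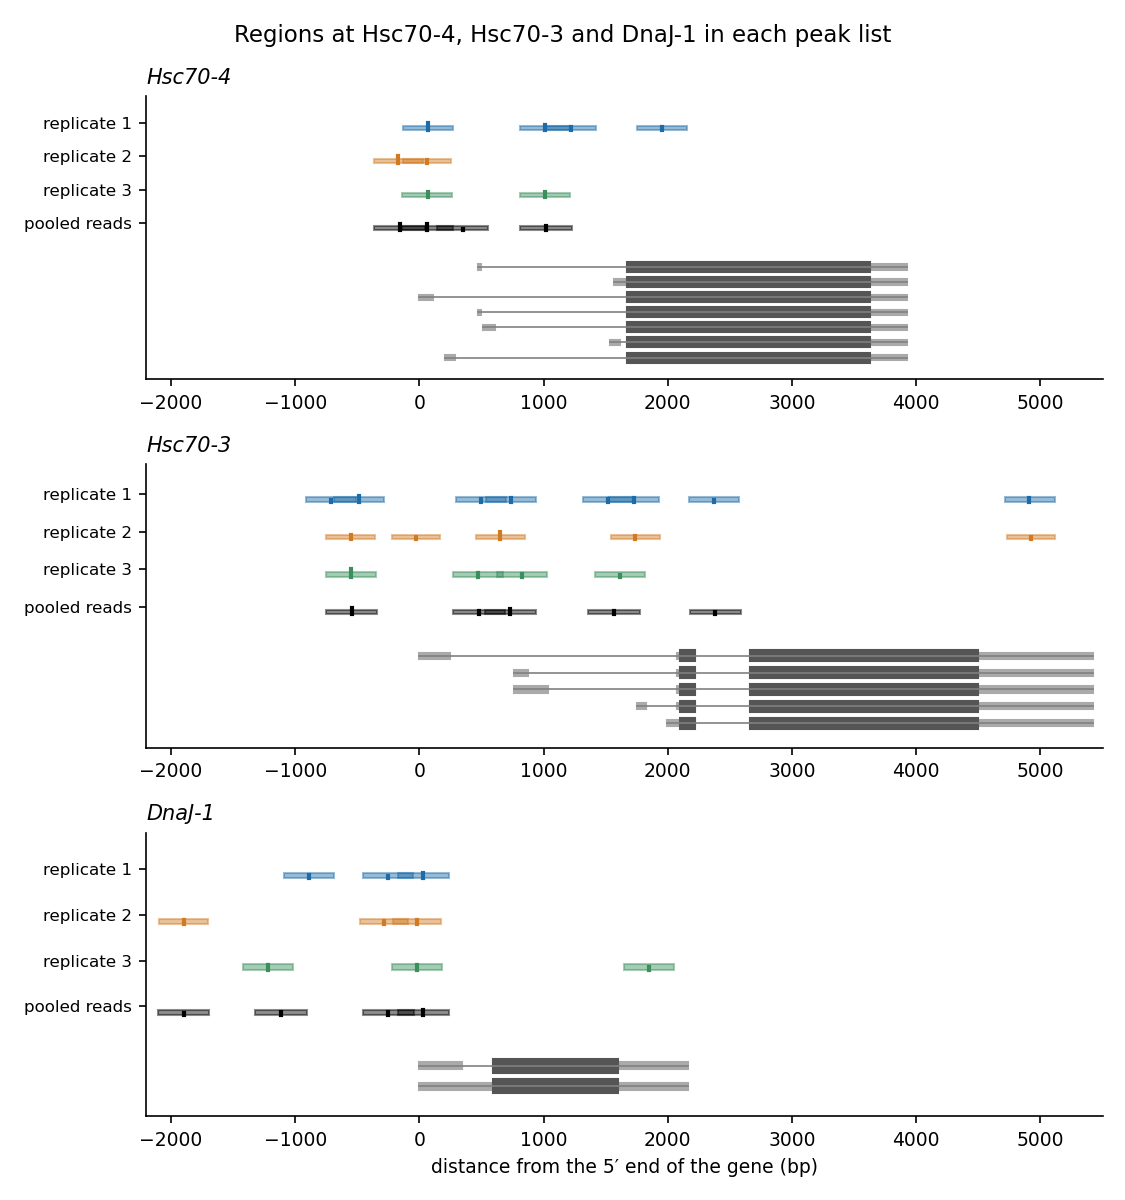
Regions at Hsc70-4, Hsc70-3 and DnaJ-1 in the 4 lists, drawn as in the map of Hsp83 and with the same scale of relative signal, against distance from the 5′ end of each gene in bp. The best pooled summits lie 64 and 31 bp from the outermost start at Hsc70-4 and DnaJ-1, most pooled summits of Hsc70-3 lie in introns, and all summits are lower than the best at Hsp83.

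Taking the best region that each replicate list held in a window, without a match to the pooled summit, Hsp83 again came first and DnaJ-1 last of the 4 genes, while Hsc70-3 and Hsc70-4 changed places. Hsp83 had ranks of 96, 207 and 121 and a relative signal of 3.50 ± 0.503 (SD, n = 3). Hsc70-3 had ranks of 3779, 2423 and 1717 and 0.985 ± 0.192, Hsc70-4 had ranks of 2407, 2212 and 3788 and 0.948 ± 0.134, and DnaJ-1 had ranks of 6712, 10716 and 6581 and 0.547 ± 0.0716. On the log10 scale the mean ranks were 2.13 ± 0.171, 3.40 ± 0.172, 3.43 ± 0.126 and 3.89 ± 0.120 (SD, n = 3) for Hsp83, Hsc70-3, Hsc70-4 and DnaJ-1. Values of Hsp83 and those of Hsc70-3 did not overlap, nor did those of Hsc70-4 and DnaJ-1. Hsc70-3 and Hsc70-4 overlapped, and the difference between their means was smaller than the spread of either. These best regions were not the same site in each replicate. From the 5′ end, in replicates 1, 2 and 3, they lay at 147, 1308 and 153 bp in Hsp83 and -489, 651 and -552 bp in Hsc70-3. They lay at 70, -169 and 65 bp in Hsc70-4 and 32, -18 and -1219 bp in DnaJ-1. The spreads therefore mix sites and are not those of a single region. The order of the genes holds within 1 experiment. A longer gene gives a longer window, and the spans were 4091 bp for Hsp83, 5422 bp for Hsc70-3, 3928 bp for Hsc70-4 and 2161 bp for DnaJ-1, against a median of 2164.5 bp for protein-coding genes.

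Across the 15 pooled summits at the 4 genes, a pair of heat shock units stood within 100 bp of 7 (46.7%), against 10.3% of thresholded and 10.2% of pooled arm summits. Those 7 were the promoter region of Hsp83, regions 2, 3 and 4 of Hsc70-4 in order of rank, region 4 of Hsc70-3, and regions 1 and 3 of DnaJ-1. Only the Hsp83 region among them was thresholded. The others had pooled ranks from 3076 to 28431, in a list that includes background regions, and no replicate list held the lowest. The deposited −log10 q-values of these others, lower for weaker calls, ran from 1.51 down to 0.0124, against 2.07 at the Hsp83 region. The count includes the pairs that are part of both longer elements of Hsc70-4. Hsp83 and DnaJ-1 are heat-induced genes, for which such elements near the start are textbook knowledge. The rest of the 7 summits are at Hsc70-4 and Hsc70-3, of the constitutive class. No test was made of the counts. The forkhead letters were within 100 bp of 2 of the 15 summits, region 1 of Hsc70-4 and region 3 of Hsc70-3, against 12.5% of thresholded and 11.5% of pooled arm summits. GAGAG was near 3 (20.0%), against 33.3% and 25.6%, and TATAAA near 7 (46.7%), against 30.9% and 27.0%. TATCGATA was near 0 of 15, against 1.84% and 0.954%. A match is a string of letters and does not show that the factor was bound.

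Hsp68 (FBgn0001230, 3R, 24055080 to 24057310, minus strand), Hsp70Aa (FBgn0013275, 3R, 11954163 to 11956544, minus strand) and Hsp70Ba (FBgn0013277, 3R, 12465453 to 12467776, minus strand) are heat-induced HSP70 genes of 1 exon each, and none had a pooled summit. Hsp68 had a region in replicate 1 only, with the summit 147 bp upstream of its start, a signal of 24.9718 at rank 9365 and a relative signal of 0.469. A second summit of replicate 1, in the coding exon at 460 bp, was at rank 23268. The nearest pooled summit was 2849 bp away, at rank 19040 and 70 bp from the start of CG6000. Hsp70Aa had a region in replicate 2 only, 1258 bp upstream, with a signal of 18.908 at rank 14919 and a relative signal of 0.400. It lay 733 bp from the start of Hsp70Ab, the neighbouring copy. Hsp70Ba had no region in any list. The nearest pooled summit was 6573 bp from the start of Hsp70Aa, and 17800 bp from that of Hsp70Ba. Each of these regions was thus seen in 1 of 3 replicates, and no second library held it.

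The promoters of these 3 genes, from 150 bases before to 30 bases after the start on the minus strand, are shown because they carry the heat shock elements for which the genes are known, without a pooled region. Capitals mark heat shock units, GAGAG on either strand and TATAAA.
Hsp68 promoter, chr3R:24057281-24057460: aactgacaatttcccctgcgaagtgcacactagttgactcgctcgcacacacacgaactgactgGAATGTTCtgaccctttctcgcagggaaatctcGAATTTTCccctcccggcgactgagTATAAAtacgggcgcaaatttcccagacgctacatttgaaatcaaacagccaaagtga
Hsp70Aa promoter, chr3R:11956515-11956694: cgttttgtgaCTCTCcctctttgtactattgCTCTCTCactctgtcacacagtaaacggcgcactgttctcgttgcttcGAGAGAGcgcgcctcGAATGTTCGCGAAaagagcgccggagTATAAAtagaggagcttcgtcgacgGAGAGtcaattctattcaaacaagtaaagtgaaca
Hsp70Ba promoter, chr3R:12467747-12467926: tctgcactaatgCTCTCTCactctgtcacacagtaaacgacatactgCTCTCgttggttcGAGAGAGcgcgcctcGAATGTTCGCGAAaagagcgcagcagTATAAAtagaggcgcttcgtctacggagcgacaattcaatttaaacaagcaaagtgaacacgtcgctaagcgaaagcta

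Each HSP70 copy has an element of 3 alternating units, centred at -50 in Hsp70Aa and -69 in Hsp70Ba, a form found between 150 bp before and 50 bp after 0.275% of all 19630 starts of protein-coding genes. GAGAG occurred 6 times in that window of Hsp70Aa and 5 times in that of Hsp70Ba, and at least once at 25.4% of starts. Hsp68 has pairs of units centred at -82.5 and -49.5, and a pair was found at 10.8% of starts. The promoters of Hsp70Aa and Hsp70Ba were also compared from 150 bp before to 50 bp after the start, longer than the stretches printed. Over this window they were the same at 163 of 181 positions (90.1%) when 1 was shifted by 19 bp against the other. That likeness bears on what the lists can show. A read that matches several copies equally well has no single place in the genome, and no source used here says how such reads were treated.

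The share of 50-base words that occur once in the genome was 100% in the windows of Hsp68, Hsc70-3, Hsc70-4, DnaJ-1 and Hsf and 97.4% in that of Hsp83. It was 33.9% for Hsp70Aa and 18.0% for Hsp70Ba. Within the gene itself it was 2.35% and 14.2%, and within 500 bp of the start 28.8% and 44.6%. The other HSP70 copies Hsp70Ab, Hsp70Bb, Hsp70Bbb and Hsp70Bc had 34.0%, 2.60%, 28.3% and 9.37%. Over all protein-coding genes, 40 of the 342 with under 50% unique words had a pooled summit (11.7%), against 61.1% of 622 genes with 50 to 90% and 57.4% of 13004 genes with 90% or more. Hsp70Aa and Hsp70Ba, which lacked a pooled region, both belong to the genes with under 50% unique words. The part of low uniqueness in that lack was not tested. Hsp68 and Hsf also lacked a pooled region, with 100% unique windows.

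**Figure D5:**
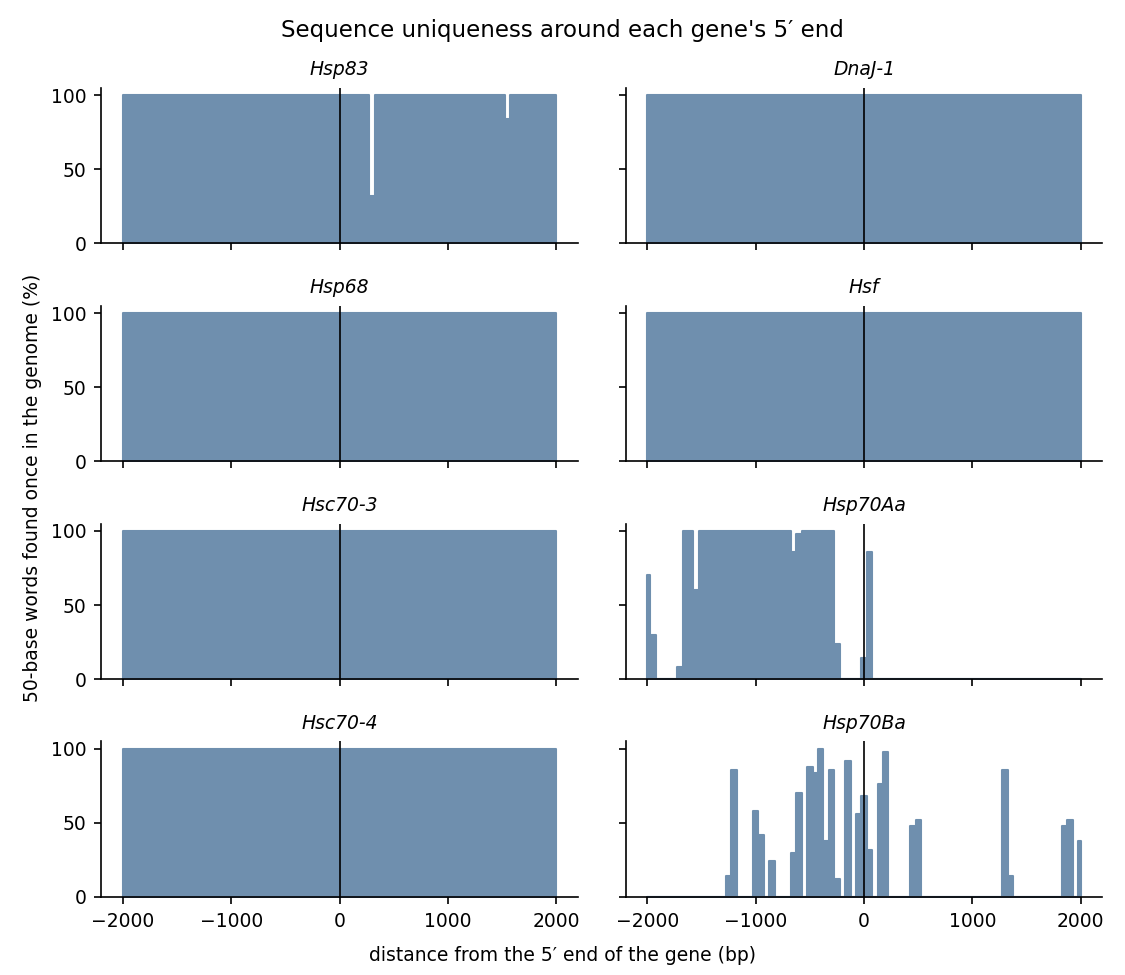
Percentage of 50-base words found once in the genome, in bins of 50 bp, against distance from the 5′ end of each of the 8 genes. The other 6 genes are unique over nearly the whole stretch shown, while Hsp70Aa is unique mainly upstream and Hsp70Ba only in short stretches.

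Hsf (FBgn0001222, 2R, 18130303 to 18134634, minus strand) encodes the heat shock factor, the activator of heat-induced genes such as Hsp70Aa. Replicate 2 had a summit 190 bp past its start, in the 5′ UTR exon, with a signal of 25.5282 at rank 7865 and a relative signal of 0.539. Replicate 3 had one at 430 bp, in the intron, with 19.1094 at rank 12198 and a relative signal of 0.446. Replicate 1 had none in the window, although its list is the longest of the 3, and its nearest summit was 5195 bp upstream of the start. The pooled list had neither. The nearest pooled summit was 6225 bp upstream of the Hsf start, at rank 2587 and 82 bp from the start of pAbp, which encodes the poly(A) binding protein. The nearest thresholded summit was 7223 bp upstream, at rank 288, and also nearest to pAbp.

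For the 7 genes without a thresholded summit, the distance from the 5′ end to the nearest one ran from 7223 bp for Hsf to 56084 bp for DnaJ-1. It was 9951 bp for Hsp68, 11476 bp for Hsc70-3, 13172 bp for Hsc70-4, 18582 bp for Hsp70Ba and 18894 bp for Hsp70Aa. Each of these summits was nearest the start of another gene. The one nearest Hsp70Ba, at rank 33, lay 102 bp from the start of CG18549, and the one nearest Hsc70-4, at rank 54, lay 107 bp from the start of Art3, an arginine methyltransferase gene. Those nearest Hsp68 and Hsp70Aa were weaker, at ranks 2056 and 2402, and the latter lay 6388 bp from the closest start, that of CG14731. The one nearest DnaJ-1, at rank 999, lay 2658 bp from the start of S6k.

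To place the 8 genes within the protein folding machinery, 67 other chaperone genes were counted in the same way, and 64 were found in the annotation. A thresholded summit was present at 14 of them, 13 of which were among the 63 protein-coding genes (20.6%, against 14.6% of all protein-coding genes). By class, 5 of 8 small heat shock genes, 3 of 9 J-domain genes, 3 of 6 folding genes of the endoplasmic reticulum, 1 of 6 co-chaperones of HSP70, 1 of 13 chaperonin genes and the heat shock RNA gene lncRNA:Hsromega had one. None of the 8 further HSP70 family genes, 7 HSP90 relatives and co-chaperones and 6 prefoldin genes did. Among the 8 are Hsp70Ab, Hsp70Bb, Hsp70Bbb and Hsp70Bc, whose windows had only 2.60% to 34.0% unique 50-base words. Within the HSP90 and HSP70 families counted here, Hsp83 was the only gene with a thresholded summit. Among the partners of HSP70, stv, the BAG co-chaperone gene starvin, and the J-domain genes mrj, DnaJ-H and Sec63 had one. Outside the small heat shock genes the count was 8 of 55 protein-coding genes (14.5%), which is the background share. The list was chosen with earlier results of these data known, so no test was made of its counts.

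The small heat shock genes, which encode holding chaperones, had the strongest regions of that list. Hsp27 had a signal of 961 at rank 31, with ranks 41, 11 and 29 in replicates 1, 2 and 3. Hsp26 had 363 at rank 278, with ranks 223, 440 and 225. Of all chaperone genes counted, Hsp27 alone ranked above Hsp83. Hsp22 stood just inside the threshold at rank 2411, with ranks 1992, 5264 and 2770, and this same region also counts for its neighbours CG4456 and Hsp67Bc.

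Among the J-domain genes, the relatives of DnaJ-1, mrj had 2 summits, the best with 227 at rank 861, and ranks 1114, 860 and 1190 in the replicates. DnaJ-H had 157 at rank 1805, with ranks 994, 2279 and 2871. Sec63, which works with BiP at the translocon of the endoplasmic reticulum, had 144 at rank 2123, but 50 bp from the start of pst. The gene stv had 2 summits, the best with 189 at rank 1251. Its best region was at ranks 1190 and 1729 in replicates 1 and 3 and at 23584 in replicate 2, so not all replicates held it among their best-ranked 2415, while they did hold its other thresholded region.

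In the endoplasmic reticulum, where Hsc70-3 acts, Xbp1, the transcription factor of the unfolded protein response, had a summit 36 bp from its start with 148 at rank 2019. Its ranks in the replicates were 14193, 2726 and 1308, so replicate 1 stood far from the other two. Cnx99A, a calnexin gene, had 151 at rank 1967. The summit in the window of ERp60, a disulfide isomerase gene, had 216 at rank 953 and lay 25 bp from the start of eEF1alpha1. CG11267, the mitochondrial HSP10 gene, had 161 at rank 1727, and lncRNA:Hsromega had 163 at rank 1685. Of the 14 genes, 4 (Hsp27, Hsp26, mrj and stv) had a thresholded region that all 3 replicates held among their best-ranked 2415. That is 6.25% of the 64 genes counted, against 9.11% of all protein-coding genes. Hsp83 was the 1 of the 8 large chaperone and regulator genes that had such a region.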

How the data were processed

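FoxP-eGFP regions were measured in 3 biological replicates of 1 group. Per the file sheets, lists were derived from alignments with 1 control file in common, and the thresholded list came out of the step known as irreproducible discovery rate (IDR). Which aligner and peak caller were used, and with which settings, is not given in the sources used here. Signal, the value that the authors deposited for each region, is a score with no stated scale. Here it served for ranks inside each list. The authors also deposited a −log10 q-value, which was not used. Read depth is unknown, so no counting interval can be given.

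Coordinates are dm6, 1-based, and no summit or gene lay beyond the ends of the RefSeq release 6 chromosome arms. Genes and transcripts were taken from Ensembl release 115 (BDGP 6.54). Lists in dm3 coordinates were not used here. Ranks were taken by signal over the whole of each list, the 20 mitochondrial regions of the thresholded list included, and counts of arm regions leave these out. The replicate region that matches a pooled summit holds it or has the nearest summit within 200 bp, and a summit is held by a replicate when it lies in one of the 2415 best-ranked regions there. Motifs were searched on both strands, overlaps included, with a palindrome counted once. Word uniqueness was computed over the whole assembly on both strands. The method that assigns summits to genes was checked on simulated summits: of 1200 planted in gene windows, 100% were found there, over 13968 genes. Planting used the same window rule as the assignment, so the check covers the bookkeeping and not the choice of window. Python 3.11.15 with numpy 2.4.6, pandas 2.3.3 and matplotlib 3.10.9 was used.

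The replicates form 1 group, so no comparison between groups was possible, and counts are set beside the share of all protein-coding genes with no p-value. The text names all 8 genes, every gene of the wider chaperone list with a thresholded summit, and other genes whose starts lie within 500 bp of a thresholded summit counted for one of the 8. Neighbours of other summits were named after their values were seen. The 8 genes, the chaperone list, the motifs and the rules were chosen with earlier results of these data known. Of 67 listed chaperone symbols 6 were matched through RefSeq synonyms and 3 were not matched. Alternatives were a shorter and a longer list, other windows, other overlap rules, leaving out each replicate, other motif windows and words of 36 bases.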

Additional observations from a re-analysis of the deposited data

How the results depend on the processing

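Hsp83 was the single one of the 8 genes with a thresholded summit in the better-ranked 1207 regions, in the regions held by all 3 replicates, without each replicate in turn (1 gene in each of the 3 cases) and with 500, 1000 or 5000 bp of upstream sequence. Of all protein-coding genes, 8.73% had one in the better-ranked 1207 regions and 9.11% in those held by all 3. The shares were 10.6%, 10.1% and 10.5% without replicates 1, 2 and 3. With 500, 1000 and 5000 bp they were 12.3%, 13.1% and 19.0%, so 1 of 8 is again not a result about the group. In the best 4830 pooled regions the count was 3 (Hsp83, Hsc70-3 and Hsc70-4), against 23.4% of protein-coding genes, and in the whole pooled list 4. Near starts these counts were 3 (against 15.7%) and 4. The wider chaperone list moved more. Its count of 14 was 4 in the better-ranked 1207 regions (against 8.73%), 4 in regions held by all 3 replicates (against 9.11%), and 38 in the whole pooled list (59.4% of 64, against 56.5%). Asking that only the remaining replicates hold a region, with 1 left out, gave between 4 and 6 genes, that is 5, 4 and 6 without replicates 1, 2 and 3, against 10.6%, 10.1% and 10.5% of protein-coding genes. These compare with the 4 held by all 3 replicates. All of these counts ask that replicates hold the region, and the reason for the fall from 14 was not tested. Over whole regions in place of 100 bp to either side, forkhead letters were at 4 of the 15 summits (against 21.3% of thresholded and 21.2% of pooled arm regions), GAGAG at 5 (54.9% and 44.5%), TATAAA at 11 (45.4% and 45.6%) and TATCGATA at 2 (3.13% and 1.83%). TATCGATA was at 1 within 150 bp (2.55% and 1.38%). Its share of the 15, 0 in the main window, thus stood above the background in these wider ones, on 1 or 2 summits. In all, 35 counts under other settings stayed within 1.5 times the main one and 15 did not. With words of 36 bases uniqueness fell to 31.6% for Hsp70Aa and 13.0% for Hsp70Ba. No paired analysis was possible because the 3 replicates form 1 group and the results come from no test. Unknown depth, 1 transgenic line, a signal of no stated scale and a pooled list that holds background regions limit what low ranks show. Pooled values have no replicate error, and leaving out a replicate does not remove its reads from the pooled calls.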
